A study of Homo sapiens with 8 samples.

Results

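S100 proteins are small calcium sensors, and 10 of their genes were followed here in BT474, a long-established line of human breast cancer cells that carries amplified ERBB2. The genes were taken by symbol from the deposited count table: S100A4, S100A6, S100A7, S100A8, S100A9, S100A10, S100A11, S100A14, S100A16 and S100P, 10 of its 26475 genes. The table holds 4 libraries labelled NPY1R high and 4 labelled NPY1R low, where NPY1R encodes the neuropeptide Y receptor Y1. The series title refers to persister cells under lapatinib, which blocks the EGFR and ERBB2 kinases, but the labels of these libraries name no drug, and they do not say how high and low cells were obtained. Cells of both groups were grown in multiwell plates and kept short of confluence. All 8 libraries come from this single line, and nothing in the labels says that replicates were separate cultures, so the p-values measure the spread between these libraries, which may be technical.

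An S100 protein folds into a pair of EF-hands, helix-loop-helix units that hold calcium, and usually works as a dimer. On binding calcium it exposes a surface that docks onto partner proteins such as annexins and myosins. S100A10 is the exception, being held in its active shape without calcium. Some S100 proteins are also released and bind receptors on other cells, among them AGER and TLR4. In skin and other epithelia several of these genes mark differentiation or inflammation, and in breast cancer S100A4, S100A7, S100A8, S100A9 and S100P have been studied as markers of aggressive disease.

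Against this background, 3 of the 10 genes fell and 1 rose in NPY1R high. S100P and S100A8 were each several-fold lower, S100A14 was 1.35-fold lower and S100A10 was 1.34-fold higher. S100A4, S100A6, S100A11 and S100A16 did not pass the test. S100A7 and S100A9 had too few counts to be tested with the rest. Thus 4 of the 8 tested genes passed an adjusted p of 0.05 (edgeR quasi-likelihood, Benjamini-Hochberg over all genes), whereas 13.6% of all 14008 tested genes did. By direction, 7.81% of all tested genes were lower and 5.78% higher in NPY1R high. That balance depends on scaling: 810 genes were higher and 1094 lower with TMM, but 1009 higher and 783 lower with upper-quartile factors, and the calls of the 8 S100 genes were the same with both. The 8 genes had a median log2 change of -0.11, beside -0.03 for all tested genes. The 4 called genes were also those of the 8 whose groups did not overlap, against 20.2% of all tested genes (8.77% with NPY1R high above and 11.4% with it below). Among the 4, S100A8 had NPY1R high counts all under the filter minimum of 10, so it was tested only because it was higher in NPY1R low. Its call and its lack of overlap therefore add no support to these comparisons. A filter of 1 CPM in 4 libraries removed it and left 2 genes lower.

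Of the genes followed, 9 lie on chromosome 1 within 1.63 Mb, and S100P lies on chromosome 4. Positions and sequences are those of RefSeq on GRCh38.p14, a patch release of the hg38 assembly named in the submitters' processing notes. S100A10 lies at positions 151982915 to 151993859 and S100A14 at 153614255 to 153616325, both on the minus strand. S100A8 spans 153390032 to 153422583 on the minus strand, and its RefSeq extent overlaps S100A7A. S100A9 lies at 153357854 to 153361023 on the plus strand. S100P spans 6693878 to 6697170 on the plus strand of chromosome 4. All 10 genes matched a RefSeq promoter window. The 250 bases before the start are printed below for the 4 called genes and for S100A9, whose product pairs with that of S100A8, because the results turn on these genes. RefSeq lists 3 starts for S100A8 within 212 bases, and the window of the middle one is shown. S100A16 has 2 listed starts 3782 bases apart, and only the window of the upstream one was searched. Letters are 5′ to 3′ on the strand of the gene, and capitals mark TATA box matches (TATAAA) and GC box matches (GGGCGG), searched on both strands.
S100A8 (chr1:153391074-153391323, minus strand): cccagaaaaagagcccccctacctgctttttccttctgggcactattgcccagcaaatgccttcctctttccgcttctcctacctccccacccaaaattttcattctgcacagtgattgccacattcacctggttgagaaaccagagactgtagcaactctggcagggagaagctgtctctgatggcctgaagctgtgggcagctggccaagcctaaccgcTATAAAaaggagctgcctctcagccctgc
S100A9 (chr1:153357604-153357853, plus strand): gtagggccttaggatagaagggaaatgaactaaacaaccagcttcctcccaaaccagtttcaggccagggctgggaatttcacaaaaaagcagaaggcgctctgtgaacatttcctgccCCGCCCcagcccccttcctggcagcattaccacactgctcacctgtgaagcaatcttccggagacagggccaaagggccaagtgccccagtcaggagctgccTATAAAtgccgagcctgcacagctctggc
S100P (chr4:6693628-6693877, plus strand): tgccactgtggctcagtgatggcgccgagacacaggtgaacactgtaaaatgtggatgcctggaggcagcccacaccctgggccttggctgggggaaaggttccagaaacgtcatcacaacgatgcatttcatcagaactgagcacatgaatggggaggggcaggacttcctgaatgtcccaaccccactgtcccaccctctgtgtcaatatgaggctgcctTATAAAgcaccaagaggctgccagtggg
S100A10 (chr1:151993860-151994109, minus strand): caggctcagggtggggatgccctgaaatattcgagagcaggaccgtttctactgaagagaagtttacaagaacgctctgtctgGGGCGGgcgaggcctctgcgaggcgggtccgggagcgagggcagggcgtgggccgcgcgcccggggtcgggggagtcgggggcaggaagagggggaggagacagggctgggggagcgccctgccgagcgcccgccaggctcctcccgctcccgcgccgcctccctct
S100A14 (chr1:153616326-153616575, minus strand): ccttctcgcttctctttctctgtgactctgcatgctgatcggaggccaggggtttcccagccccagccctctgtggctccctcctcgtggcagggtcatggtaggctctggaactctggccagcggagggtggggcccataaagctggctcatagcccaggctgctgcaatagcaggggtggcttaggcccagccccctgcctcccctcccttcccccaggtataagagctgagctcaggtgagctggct

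S100A8, S100A9 and S100P each held a TATA box, which starts 29, 29 and 28 bases before the start. S100A10 had none and carried a GC box 167 bases before its start. S100A14 held neither. Among the genes not printed, S100A4 and S100A7 had a TATA box 31 and 28 bases before the start, so 5 of the 10 windows held one, against 10.7% of 35116 windows of the same length in the RefSeq table. Of these 5 genes, S100A8 and S100P were called lower, S100A4 did not pass, and S100A7 and S100A9 were not tested in the main fit. Whether a TATA box bears on the changes was not tested. GC boxes were found in S100A6, S100A9, S100A10 and S100A11, 4 of the 10, and in 42.6% of all windows, with 3 in S100A6 of which a pair overlap. A C/EBP motif (TTNC directly followed by NNAA) lay in S100A6, S100A8, S100A9, S100A11 and S100P, 5 of the 10, and in 33.2% of all windows. None of the 10 windows held a full estrogen response element (GGTCA and TGACC with 3 bases between them, in 0.0399% of all windows), the steroid receptor half-site AGAACA (12.4%), the AP-1 letters TGANTCA (6.57%), the GATA letters AGATAA (9.17%) or a STAT motif (TTC and GAA with 3 bases between them, 6.57%). A match is a description of letters, and binding was not measured.

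Libraries held 18025648 to 30609791 expected counts and 17023 to 17408 genes with a count. NPY1R itself, the check of the labels, stood at 857 ± 170 CPM against 95.5 ± 5.65 CPM in NPY1R low libraries (SD, n = 4 each), and the groups did not overlap. CPM scales counts to a common library total after TMM. The luminal markers KRT8, KRT18, KRT19, EPCAM, CDH1, GATA3, FOXA1, ESR1 and ERBB2 summed to between 7350 and 9577 CPM. Taken singly, 2 of these 9 were called higher and 2 lower in NPY1R high, where 5.78% of all tested genes were higher and 7.81% lower. Replicates 1 and 2 of both groups stood apart from 3 and 4 in earlier results of these data, and libraries differed in how their values followed the GC content of transcripts. Across genes, the rank correlation of a library's deviation from the mean with transcript GC ran from 0.45 (NPY1R low replicate 1) to -0.554 (NPY1R low replicate 4), as a description over 13179 genes. The labels give no batch, so values within replicates 1 and 2 and within 3 and 4 are given where they bear on a gene.

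**Figure D1:**
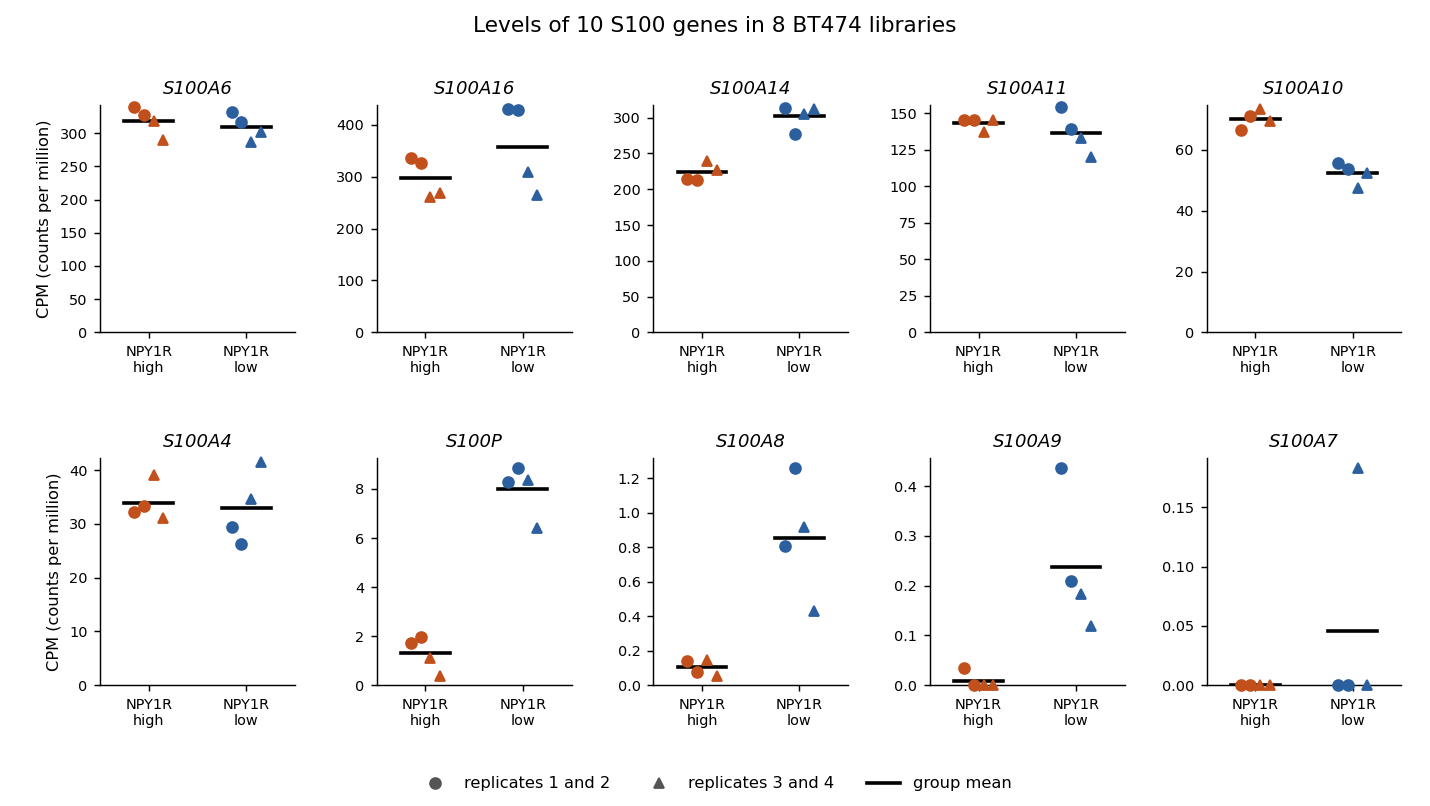
CPM (linear axis from 0) of the 10 S100 genes in each library, NPY1R high in orange and NPY1R low in blue, with circles for replicates 1 and 2, triangles for 3 and 4 and bars for group means. S100P, S100A8, S100A9 and S100A14 are lower in all 4 NPY1R high libraries and S100A10 is higher, while S100A16 separates replicates 1 and 2 from 3 and 4.

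S100A8 and S100A9 together form calprotectin, a secreted dimer that binds zinc, manganese and calcium and is abundant in neutrophils and inflamed epithelium. S100A8 had 4, 2, 4 and 1 counts in NPY1R high replicates 1 to 4 and 24, 36, 20 and 11 counts in NPY1R low. Every NPY1R low library exceeded every NPY1R high library, although the gene was scarce in both groups. Its level averaged 0.103 ± 0.0449 CPM against 0.853 ± 0.341 CPM in the low group (SD, n = 4 each). The log2 change was -2.94 (SE 0.45), a 7.67-fold fall (edgeR quasi-likelihood, adjusted p 0.00175). This was the largest change of the 8 tested S100 genes, and 0.493% of all tested genes had one of this size or larger in either direction. The gene passed the filter on low counts through the NPY1R low libraries alone, since all NPY1R high counts were under 10. Its rank and that share of tested genes therefore add no support. In bulk RNA such as this, fewer cells with the transcript and less of it per cell cannot be told apart. The ratio of summed counts, 11 against 91 and corrected for depth, was 7.97 (95% interval 4.25 to 16.5, exact, for counting error only).

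S100A9 showed 1, 0, 0 and 0 counts in NPY1R high and 13, 6, 4 and 3 counts in NPY1R low. The groups did not overlap, and both were near the limit of detection: a library with 0 counts is compatible with up to 3. It did not pass the filter, so the main fit gave it no test. The exact two-sided permutation p of the CPM values was 0.0286, the smallest that 4 against 4 libraries allow. Groups that do not overlap always give this p, so it adds nothing to the lack of overlap. Summed counts were 1 and 26, a depth-corrected ratio of 25 (95% interval 4.11 to 1030, exact, for counting error only). When all genes with a count were tested without the filter, S100A9 had a log2 change of -4.04 (SE 0.92; edgeR quasi-likelihood, adjusted p 0.0157), where 8.65% of 19758 genes were called. S100A8 and S100A9 thus differed in the same direction, each at a level under 2 CPM.

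S100A7, or psoriasin, is an antimicrobial S100 protein of skin that is also made in some ductal breast tumors. It had 4 counts in NPY1R low replicate 3 and 0 in the other 7 libraries, so no difference between the groups was detectable at this depth. The near-identical copy S100A7A had 1 count each in NPY1R low replicates 1 and 3, and how reads shared between these copies were divided is uncertain.

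Calprotectin genes are also markers of myeloid cells, so other myeloid markers were read in the same libraries. Of 12 myeloid markers, FCGR3B, ELANE and FCN1 were at 0 in all 8 libraries. PTPRC, the pan-leukocyte marker, had 2 counts over the 8 libraries, both in NPY1R high, while CD14, CSF3R and MPO had 1 each. S100A12, the third calgranulin, had 3 counts, all in NPY1R low. The summed level of the 12 ran from 1.6 to 2.34 CPM in NPY1R high and from 1.78 to 3.22 CPM in NPY1R low, mostly LYZ and CD68. Both of these were tested and neither passed, though CD68 had a log2 change of -0.59 (edgeR quasi-likelihood, adjusted p 0.128). Lymphocyte markers summed to at most 0.223 CPM, with 5 of 6 at 0. Fibroblast markers summed to 10.4 to 17.5 CPM over the 8 libraries, nearly all COL1A1, with COL1A2, DCN, PDGFRB and THY1 at 0. Endothelial markers, nearly all VWF, summed to 9.22 to 15.6 CPM in NPY1R high and 13.5 to 18.2 CPM in NPY1R low. The part of other cells in the S100A8 and S100A9 counts was not tested.

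S100P, first isolated from placenta, binds ezrin and can act outside the cell through AGER. It had 50, 53, 31 and 7 counts in NPY1R high replicates 1 to 4 and 247, 253, 183 and 163 counts in NPY1R low. In CPM these were 1.72, 1.97, 1.12 and 0.385 against 8.29, 8.86, 8.37 and 6.4. The highest NPY1R high library stayed well below the lowest NPY1R low library, and replicate 4 was lowest within both groups. The log2 change was -2.57 (SE 0.33), a 5.93-fold fall (edgeR quasi-likelihood, adjusted p 0.000604). Within replicates 1 and 2 the means were 1.84 and 8.57 CPM, and within replicates 3 and 4 they were 0.754 and 7.39 CPM, so the fall was present in both subsets. The difference of log2 CPM (prior count 2) was -2.17 in the first and -3.31 in the second.

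S100A14 and S100A16 are neighbours on chromosome 1, with 1117 bases between them, and are both widely made by epithelia. S100A14 had 214, 213, 240 and 227 CPM in NPY1R high replicates 1 to 4 and 313, 277, 305 and 312 CPM in NPY1R low. The groups were narrow and apart, with a gap between the highest NPY1R high library and the lowest NPY1R low library. The log2 change was -0.43 (SE 0.06; edgeR quasi-likelihood, adjusted p 0.00112). This was a small change on an abundant gene, and it was -0.46 within replicates 1 and 2 and -0.40 within replicates 3 and 4.

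S100A16, whose C-terminal EF-hand binds calcium while its other loop has diverged, had 336, 327, 261 and 269 CPM in NPY1R high and 430, 429, 308 and 264 CPM in NPY1R low. In both groups replicates 1 and 2 were higher than replicates 3 and 4. The spread within NPY1R low was therefore larger than the difference between the group means, and the log2 change of -0.26 (SE 0.16, 95% interval -0.62 to 0.09) did not pass (edgeR quasi-likelihood, adjusted p 0.354). Within replicates 1 and 2 the groups were apart, at means of 332 and 429 CPM. Within replicates 3 and 4 they overlapped, at 265 and 286 CPM. With a term for that division of replicates the adjusted p was 0.0268 (log2 change -0.24), and with the replicate number as a block and each library's GC trend removed it was 0.015 (log2 change -0.21), both by edgeR quasi-likelihood. Removing the GC trend without the block gave an adjusted p of 0.131. S100A16 transcripts averaged 58% G and C, and the part of GC content in the division was not tested.

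S100A10, also called p11, binds annexin A2 as a heterotetramer at the plasma membrane, where it takes part in plasminogen activation and in bringing channels to the surface. It had 66.5, 71, 73.5 and 69.5 CPM in NPY1R high replicates 1 to 4 and 55.7, 53.7, 47.5 and 52.4 CPM in NPY1R low. All NPY1R high libraries were above all NPY1R low libraries. The log2 change was 0.42 (SE 0.06; edgeR quasi-likelihood, adjusted p 0.00176). It was 0.33 within replicates 1 and 2 and 0.52 within replicates 3 and 4, so the size varied and the direction did not.

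The gene of its partner, ANXA2, rose as well. ANXA2 had 557, 575, 565 and 517 CPM in NPY1R high and 450, 439, 412 and 462 CPM in NPY1R low, again with no overlap. Its log2 change was 0.33 (SE 0.06; edgeR quasi-likelihood, adjusted p 0.00345), with a 95% interval of 0.20 to 0.45 beside 0.28 to 0.57 for S100A10. S100A11 and its partner annexin A1 were read in the same libraries. ANXA1 had 79.7, 86, 83.7 and 69.3 CPM in NPY1R high and 38.8, 35.2, 32.7 and 35.9 CPM in NPY1R low, a log2 change of 1.16 (SE 0.08; edgeR quasi-likelihood, adjusted p 1.79e-05). S100A11 had 145, 145, 137 and 145 CPM against 154, 139, 133 and 120 CPM, with overlapping groups, although replicates 3 and 4 taken alone were apart at means of 141 and 126 CPM. Its log2 change of 0.07 (95% interval -0.09 to 0.23, edgeR quasi-likelihood, adjusted p 0.627) lies below the whole interval for ANXA1, 0.98 to 1.34. The difference between those changes was not tested itself. S100A11 has 10 pseudogenes in RefSeq, and how reads shared with them were assigned is not stated.

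**Figure D2:**
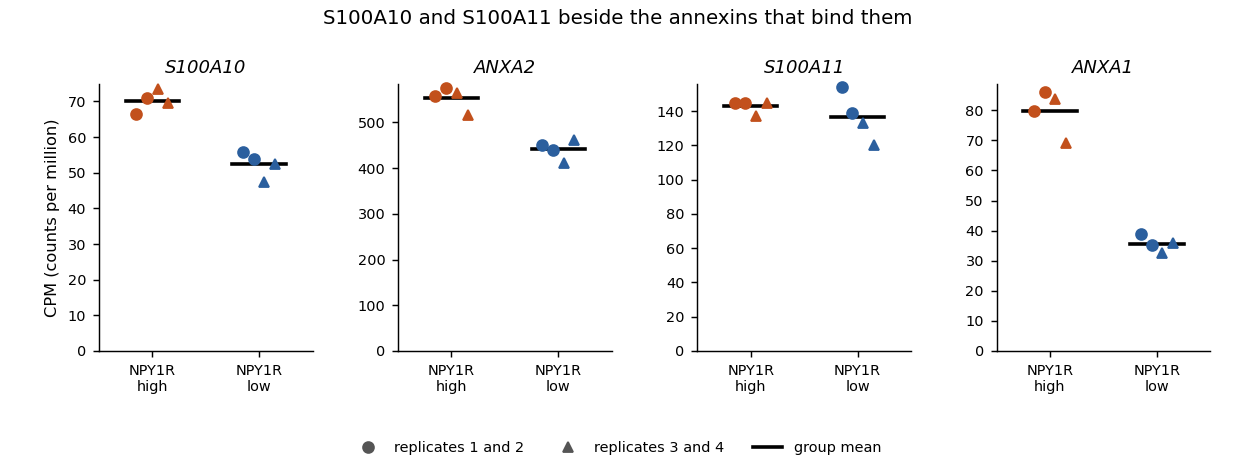
CPM (linear axis from 0) of S100A10 and ANXA2 and of S100A11 and ANXA1 in each library, NPY1R high in orange and NPY1R low in blue, with circles for replicates 1 and 2, triangles for 3 and 4 and bars for group means. S100A10, ANXA2 and ANXA1 are higher in all 4 NPY1R high libraries, whereas the S100A11 libraries overlap between 120 and 154 CPM.

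S100A6, or calcyclin, was the most abundant of the genes per length and binds CACYBP and annexins. It ranged from 289 to 340 CPM in NPY1R high and from 286 to 332 CPM in NPY1R low. Its log2 change was 0.05, with a 95% interval of -0.10 to 0.19, and it did not pass. S100A4, which binds the heavy chain of nonmuscle myosin MYH9 and is tied to cell motility, ranged from 31.1 to 39.1 CPM in NPY1R high and from 26.2 to 41.6 CPM in NPY1R low. Its log2 change was 0.04, with a wider 95% interval of -0.27 to 0.35. Within replicates 1 and 2 alone the S100A4 groups were apart, at means of 32.8 and 27.8 CPM, and within replicates 3 and 4 they overlapped, at 35.1 and 38.1 CPM. Over all libraries the groups of both genes overlapped, and the intervals leave room for small changes in either direction. RefSeq shows S100A5 overlapping S100A4, but S100A5 had 4 counts over the 8 libraries.

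Levels of different genes were compared per kilobase of the median principal transcript in GENCODE release 29, a length that is approximate because the transcripts used in BT474 were not measured. In NPY1R high the order was S100A6 at 474, S100A16 at 288, S100A11 at 241, S100A14 at 209, S100A10 at 77.2 and S100A4 at 59.6 CPM per kilobase. Each of these was apart from the next over the 4 libraries. In NPY1R low, S100A6 at 459 CPM per kilobase was again apart from the rest. S100A16 at 345 and S100A14 at 282 overlapped, as did S100A14 and S100A11, which was at 230 CPM per kilobase. S100A4 at 57.9 and S100A10 at 57.6 CPM per kilobase could not be ordered there. S100P was seventh in both groups, at 1.02 and 6.24 CPM per kilobase, and S100A8 eighth at 0.202 and 1.68. The 4 genes that were abundant in both groups, S100A6, S100A16, S100A11 and S100A14, therefore set the family total. The summed CPM of the 10 genes ran from 1031 to 1136 in NPY1R high and from 1099 to 1323 in NPY1R low, with overlap.

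**Figure D3:**
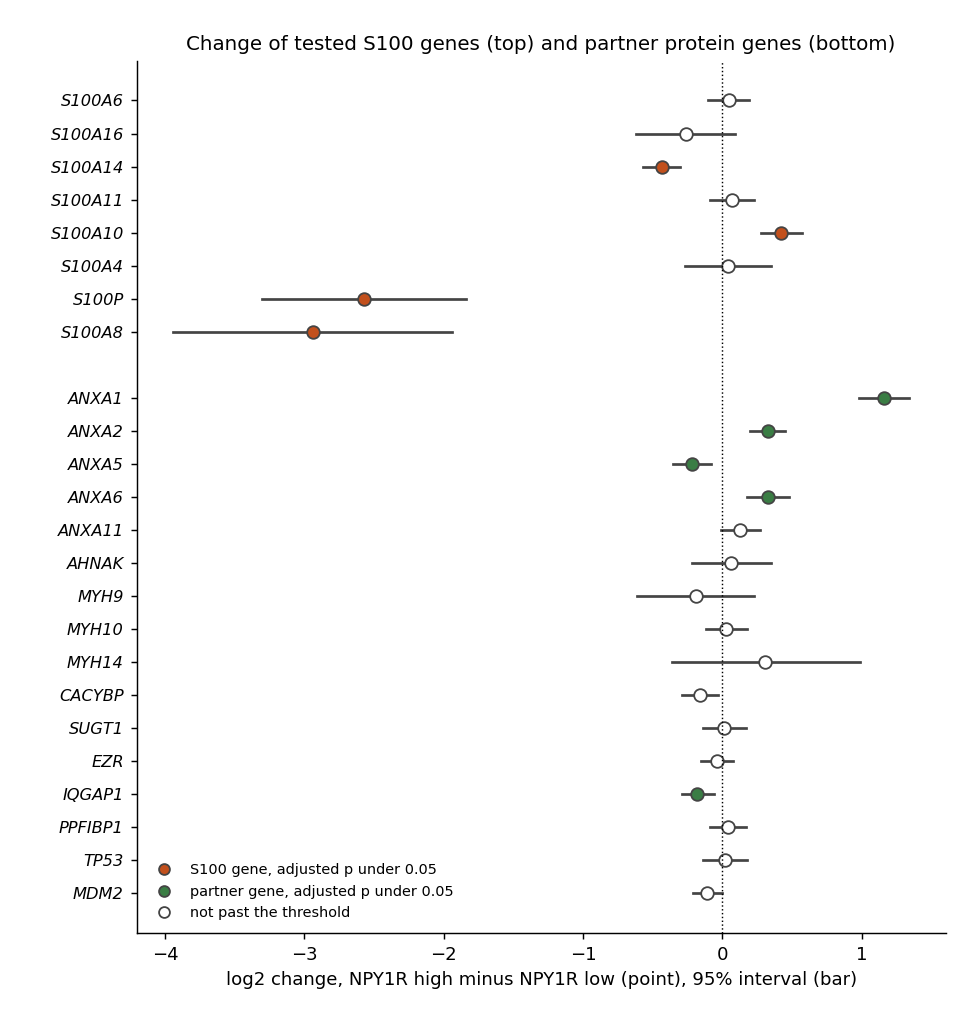
Log2 change (NPY1R high minus NPY1R low, edgeR) with its 95% interval for the 8 tested S100 genes and for 16 genes of partner proteins, filled where the adjusted p was under 0.05. S100P and S100A8 lie between -2.57 and -2.94, while the other S100 genes lie within -0.43 and 0.42 and ANXA1 reaches 1.16.

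Among the other S100 genes, only S100A2, S100A13 and the S100P-binding protein gene S100PBP had enough counts to be tested, 3 of 12, and none passed in edgeR, DESeq2 or limma-voom or had an unadjusted p under 0.05. S100A13 stood at 41.4 against 41 CPM. S100A1, with 24 counts in NPY1R high and 48 in NPY1R low, was too low to test. S100B, S100G, S100Z and S100A7L2 were at 0 in all 8 libraries. All 16 partner genes were tested, with 3 higher, 2 lower and 11 not called (median log2 change 0.02), beside 5.78% higher and 7.81% lower of all tested genes. Besides ANXA1 and ANXA2, ANXA6, a membrane-binding annexin, rose by 0.33 (SE 0.07) on the log2 scale. ANXA5 fell by 0.22 (SE 0.06) and the scaffold gene IQGAP1 by 0.18 (SE 0.05), but neither passed with DESeq2, median-of-ratios factors, upper-quartile factors or library totals. The 3 higher annexins passed under each of these. The partners CACYBP (log2 change -0.16), EZR (-0.04) and MYH9 (-0.19) did not pass.

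Receptor genes were mostly low. TLR4, FPR1 and CD33 were too low to test, and AGER was at 1.41 CPM against 1.34 CPM in the low group. Of 8 tested genes in this list, 3 fell and 0 rose (median log2 change -0.37), where 7.81% of all tested genes fell and 5.78% rose. SCARB1, a scavenger receptor for lipoproteins, fell by 0.60 (SE 0.12) and the adhesion molecule gene ALCAM by 0.30 (SE 0.07). CD36, named after its values were seen, went from 0.458 to 0.0703 CPM (NPY1R low to high). It had 5, 1, 2 and 0 counts in NPY1R high and 12, 12, 10 and 14 in NPY1R low, so it passed the filter on low counts only through the group where it was higher. The call of CD36 therefore adds no support to the comparison of this list with all tested genes. Of 22 genes for inflammatory inducers and mediators, 9 were tested and 0 passed in edgeR, DESeq2 or limma-voom, with 2 at an unadjusted p under 0.05 in edgeR (IL6R and CEBPB). Among them STAT3 had a log2 change of -0.01 and CEBPB of -0.24 (adjusted p 0.0903). IL1A, IL1B, IL6, TNF and CXCL8 were too low to test.

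The epidermal differentiation complex lies on chromosome 1 between the pair S100A10 and S100A11 and the other S100 genes there. Of its 29 listed genes in the table, 2 were tested and 17 had 0 counts everywhere. The list also held S100A12, which lies among those other S100 genes, and THEM5, which lies outside the stretch from S100A10 to S100A13. IVL, for the cornified envelope protein involucrin, was named after its values were seen. It was higher in NPY1R high, at 1.17 against 0.493 CPM (log2 change 1.27, SE 0.25, edgeR quasi-likelihood, adjusted p 0.00849). Over the whole stretch from S100A10 to S100A13, 11 genes were tested, of which 4 are not among the S100 genes followed. IVL was the only call among those 4, where 13.6% of all tested genes were called in either direction. Of the S100 genes followed, S100A10 was called higher and S100A14 lower. S100A8 was also called lower, but it was tested only through its NPY1R low counts.

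**Figure D4:**
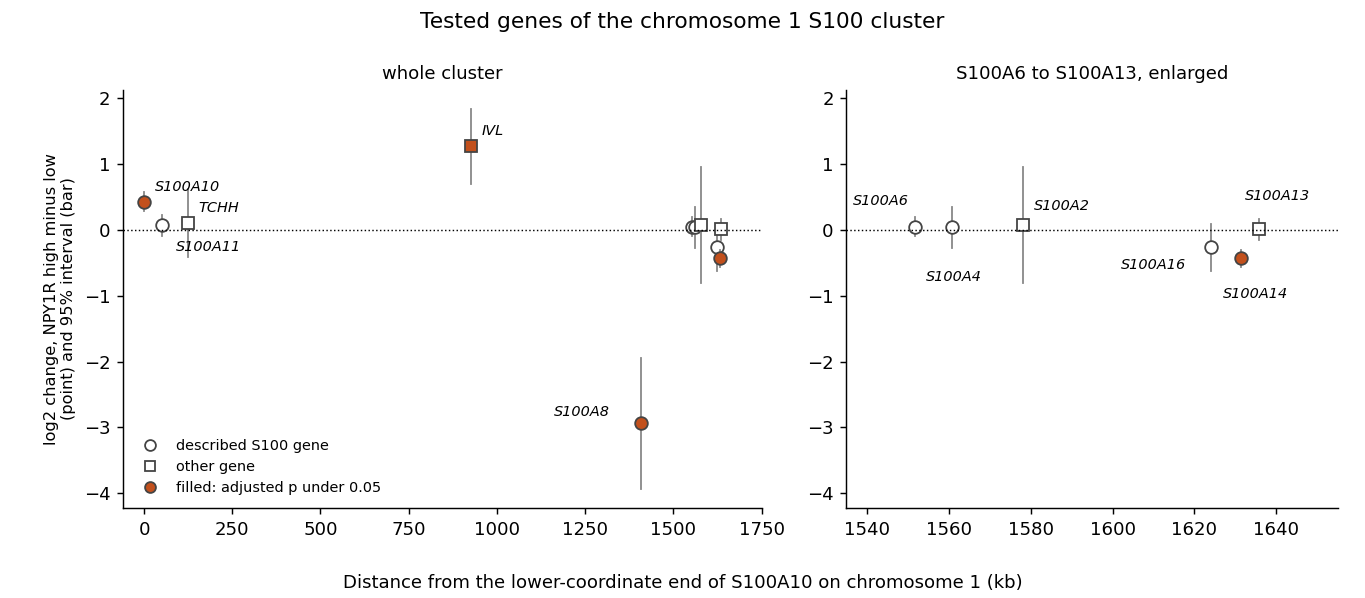
Log2 change with its 95% interval for the 11 tested genes from S100A10 to S100A13, by distance in kb from the lower-coordinate end of S100A10, with the crowded end enlarged at the right. Filled points passed an adjusted p of 0.05, and they lie both above 0 (S100A10, IVL) and below 0 (S100A8, S100A14).

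Genes of squamous and barrier differentiation also went both ways, with 2 higher and 4 lower of 14 tested (median log2 change 0.02). Over all tested genes 5.78% were higher and 7.81% lower. The kallikrein protease genes KLK10 and KLK11 rose, by 1.49 (SE 0.22) and 1.42 (SE 0.08) on the log2 scale. CALML5, a calmodulin-like EF-hand protein of skin, fell by 2.48 (SE 0.49), and KLF4, a transcription factor of epithelial differentiation, by 0.32 (SE 0.09). CALML5 did not pass with limma-voom, nor KLF4 with median-of-ratios or upper-quartile factors or library totals. GRHL1 and TGM3 were the other calls, both lower. TGM3 had 2, 0, 0 and 1 counts in NPY1R high and 18, 24, 20 and 16 in NPY1R low, and it too passed the filter only through NPY1R low. The call of TGM3 therefore adds no support to the comparison of this list with all tested genes. Among other EF-hand calcium sensors 1 of 21 tested genes rose and 6 fell (median log2 change -0.19), where 5.78% of all tested genes rose and 7.81% fell. The riser was SRI, for sorcin, at 0.43 (SE 0.08). NUCB2 fell by 0.60 (SE 0.08), CIB1 by 0.54 (SE 0.15) and EFHD1 by 0.42 (SE 0.07), and the others were CALM3, CAPN2 and CALU. The same 7 EF-hand genes passed with DESeq2 and limma-voom, but CALM3 did not pass with library totals.

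The genes most like a member were those whose log2 CPM, centred on its mean over the 8 libraries, had the smallest root mean square difference from it. For S100A8 these were FAM65C at 0.424, CGNL1 at 0.447, ALOX15B at 0.468, CALML5 at 0.476 and GRAMD2 at 0.488, of 10442 genes compared. Each of them was also called lower in NPY1R high, so the likeness in part restates that difference. S100A8 had 4, 2, 4 and 1 counts in NPY1R high, where its log2 CPM leans on the prior count of 2. CALML5 shares with S100A8 a low NPY1R low replicate 4, at 2.16 CPM beside 8.24 to 14.9 in replicates 1 to 3. For S100A16, the member with the highest mean CPM, they were HPCAL1 at 0.037, DCTN1 at 0.041, RNASEH2A at 0.054, LAD1 at 0.059 and DNPEP at 0.06. None of these 5 was called between the groups. The points share 8 libraries, their depth and the division of replicates 1 and 2 from 3 and 4.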

How the data were processed

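RNA was sequenced from 8 BT474 libraries. The authors deposited expected counts for gene symbols, without scaling across libraries; 7.97% to 8.76% of each library's values were not whole. The submitters' processing notes name STAR 2.5.2, RSEM 1.3.0 and hg38. The annotation is not given in the sources used here. The labels' protocols describe a stranded total RNA kit.

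Counts were rounded, filtered with filterByExpr (minimum count 10), scaled by TMM and tested over all 14008 genes left with edgeR's quasi-likelihood test (edgeR 4.0.16, R 4.3.3). P-values were adjusted by Benjamini-Hochberg, and intervals are 95%. Log2 CPM used a prior count of 2. The procedure was tested on simulated data. No unmatched columns were present. Alternatives used limma 3.58.1, DESeq2 1.42.0, other scalings, filters and designs, and leaving out libraries.

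The members, lists, tests and the division of replicates were chosen with earlier results of these data known. The 10 members were always named. List genes were named when called with a mean CPM of at least 1, at most the 4 largest changes per list, plus ANXA1 and ANXA2; other list genes given by name were chosen after their values were seen. Most-like genes had a mean CPM of at least 5. Transcript lengths and GC content came from GENCODE release 29. Protein sequences were not used here.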

Additional observations from a re-analysis of the deposited data

Results flagged for a closer look

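Of 19 sets of 4 libraries, each an S100 gene in a group where its values differ, 3 had a library whose gap to its nearest neighbour was too large a share of the range of its group by Dixon's test for 4 samples at the 95% level. Chance gives about 1 in 20. S100A11 in NPY1R high replicate 3, at 137 CPM beside 145 in each of the others, had a gap of 0.882 of the range. S100A9 in NPY1R high replicate 1 had a gap of 1 of the range, because 1 count stood beside 0 in the other NPY1R high libraries. S100A7 in NPY1R low replicate 3 also had a gap of 1 of the range, with 4 counts beside 0 in the other NPY1R low libraries. These last values rest on few counts.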

How the results depend on the processing

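Of the 8 tested S100 genes, S100A6, S100A8, S100A10, S100A11, S100A14 and S100P kept their direction and their side of the threshold in every fit run that tested them. The subsets of replicates were not fitted, and there the log2 difference of S100A11 was -0.01 within replicates 1 and 2 and 0.16 within replicates 3 and 4. The adjusted p in the fits reached at most 0.00847 for S100A8, 0.00774 for S100A10, 0.0116 for S100A14 and 0.00338 for S100P. A filter of 1 CPM in 4 libraries removed S100A8, leaving 2 genes lower in place of 3, and without a filter S100A9 made 4. S100A16 was called lower with the term for replicates 1 and 2 against 3 and 4 (log2 change -0.242) and with the replicate block and GC offset together (-0.209), so that 4 genes were lower, while the replicate block alone gave an adjusted p of 0.0858. S100A4, not called, changed sign in fits that each left out a library, where its log2 change ran from -0.052 (without NPY1R low replicate 2) to 0.213; without NPY1R high replicate 3 it was -0.005. For S100A10, 0.42 became 0.33 within replicates 1 and 2 and 0.52 within replicates 3 and 4. Over all genes, 810 were higher and 1094 lower; at an adjusted p under 0.01 these were 470 and 562. Leaving out each library gave 625 to 1064 lower, with the fewest without NPY1R high replicate 4. The term for replicates 1 and 2 against 3 and 4 gave 1681 lower, the GC offset 1729 lower, and the replicate block with the GC offset 1310 higher and 1971 lower. The causes were not tested. The replicate block alone gave 805 higher and 1028 lower and changed no call of an S100 gene. The main fit did not take same-numbered libraries as pairs. Their deviations correlated at 0.339, 0.157, 0.0907 and 0.0178 across genes, which cannot decide whether they are pairs. The trailing numbers of the column names alternate between NPY1R low and high within each replicate number. The GC offset, alone or with the block, and a fit without both NPY1R high replicate 3 and NPY1R low replicate 4 were chosen after seeing the data. Depth limits S100A7, S100A8 and S100A9, whose NPY1R high counts were 4 or fewer in each library.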
